A study of Mus musculus with 2 samples.

Results

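miR-574 is a microRNA (miRNA) hairpin that yields a mature miRNA from each of its arms, mmu-miR-574-5p and mmu-miR-574-3p (mmu stands for mouse and is left out below). Both were measured in whole femurs, bone with its marrow, of 9-month-old female mice of C57BL/6 background after ovariectomy (OVX, removal of the ovaries, the main source of estrogen) and after a sham operation. Each group was a single RNA pool from 4 mice, labelled with Cy3 and read on an Agilent miRNA array of its own, in 1 colour; the time from surgery to collection is not given in the sources used here. The members are the 2 miRNAs of this hairpin among the 1881 mouse miRNAs on the array, read by 6 of its 4415 probes, and all 6 probes were well above background on both arrays. They were chosen from these same values, because the arms differed between OVX and sham in opposite directions, so the differences below are a description and carry no test. With 1 array per group there is no replicate check, and every printed error comes from the spread between spots within an array, which holds no variation between mice. In pooled whole bone, fewer cells making a miRNA and less of it per cell cannot be told apart.

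A miRNA hairpin is cut by Drosha in the nucleus and by Dicer in the cytoplasm into a short duplex, and an Argonaute protein keeps a strand of it to find target mRNAs. The seed, bases 2 to 8 of the mature miRNA, gives most of the target pairing, so the arms of a hairpin read different mRNAs although they are made in equal numbers from a single precursor. The kept arm can differ between cell types, and the levels of the arms also depend on how long each strand lasts. miR-574-3p is known from cartilage, where the chondrocyte factor Sox9 has been reported to induce it and the retinoid receptor RXRα is a reported target. miR-574-5p is known for its GU repeats, which bind the RNA-binding protein CUGBP1.

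The sequences are shown because the arms are near mirror images in base composition, which also sets what the probes are made of. RefSeq (build GRCm38.p6) places the hairpin on the plus strand at chr5:64970318-64970395, inside the spans of 2 genes, Fam114a1 and Tlr6; its table does not say whether that is exon or intron. The deposited files, which use another build, list the probes as unmapped and give no position. In the 78-base hairpin the capitals mark the mature arms, and in the mature sequences they mark the seed.
miR-574 hairpin: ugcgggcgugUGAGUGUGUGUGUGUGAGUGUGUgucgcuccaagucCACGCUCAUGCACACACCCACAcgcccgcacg
miR-574-5p: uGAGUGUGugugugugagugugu
miR-574-3p: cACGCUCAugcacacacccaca
G and U make up 91.3% of the 23 bases of miR-574-5p, and A and C make up 81.8% of the 22 bases of miR-574-3p. In the minimum-energy fold of the hairpin (-55.6 kcal/mol by RNAfold), 20 bases of the 5p arm paired with the 3p arm, 3 of them as G-U pairs. Of the array's miRNAs, 1608 matched a RefSeq mature sequence by name, and among those no other shared the seed of either arm.

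The probes are nested DNA complements of the 3′ part of each arm. Capitals mark the bases that a longer probe adds to the shortest probe of its arm.
miR-574-5p probe 1: acacactcacacacaca
miR-574-5p probe 2: acacactcacacacacaC
miR-574-3p probe 1: tgtgggtgtgtg
miR-574-3p probe 2: tgtgggtgtgtgC
miR-574-3p probe 3: tgtgggtgtgtgCA
miR-574-3p probe 4: tgtgggtgtgtgCAT
The 5p probes are complementary to bases 7 to 23 and 6 to 23 of the miRNA. The shortest 3p probe is complementary to bases 11 to 22, and each longer one reaches 1 base further towards the seed, the longest starting at base 8. The probes therefore cover at most the last 3 bases of the 5p seed and the last base of the 3p seed. At 12 to 15 bases the 3p probes were short for this array: the mean probe length of 13.5 bases compared with a median of 16.0 over the 197 miRNAs present on both arrays. Here present means that the same probe had over 50% of its spots well above background on each array.

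miR-574-5p was bright on both arrays. With probe 1 the processed signal of 15 sham spots had a lowest value of 425, a median of 475 and a highest value of 518, and that of 15 OVX spots had 680, 736 and 841. With probe 2 the sham spots had 674, 736 and 785, and the OVX spots 1092, 1158 and 1271. As deposited, every OVX spot was thus brighter than every sham spot of its probe, and the mean signal was 1.56-fold and 1.60-fold higher on the OVX array. The OVX array as a whole was brighter, however, by 2.02-fold (log2 1.01) at the 75th percentile of the 350 probes that passed background on each array. Each array was therefore scaled by subtracting that percentile on the log2 scale, and the levels and differences from here on are relative to the other miRNAs of the array unless they are called unscaled. After scaling the order turned: the sham spots of probe 1 lay between 1.72 and 2.003 and the OVX spots between 1.38 and 1.69, again without overlap. Such a gap was common, since 18.3% of the 350 probes had all OVX spots below all sham spots after scaling.

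The scaled level of miR-574-5p was 2.20 in sham and 1.84 in OVX. The difference, OVX minus sham, was -0.35 on the log2 scale (spot SE 0.02), or 0.784-fold. The probes gave -0.37 (spot SE 0.03) and -0.33 (spot SE 0.03), which is less apart than the SD of 0.11 between probes of the same miRNA over the array. With this value miR-574-5p was 54th from the lowest of the 197 miRNAs. It reached neither 2-fold lower, as 2.03% of the 197 did, nor 1.5-fold lower, as 14.7% did. The quartiles of all differences were -0.36 and 0.28 and their median was -0.04, so the 5p arm stood just above the lower quartile. Its direction depended on the scaling: the difference was 0.66 without scaling and 0.32 when the arrays were scaled to their control probes. Its size depended on the processing too. It was -0.0045 with Agilent's gene-level signal and -0.14 with normexp. With quantile normalization and in the authors' deposited table it was -0.15.

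miR-574-3p was dim on the sham array and clearly brighter on the OVX array. With the 12-base probe the processed signal of 6 sham spots had a lowest value of 35.0, a median of 36.7 and a highest value of 40.2, and that of 8 OVX spots had 109, 138 and 155. With the 13-base probe 5 sham spots had 30.0, 30.3 and 31.0, and 7 OVX spots had 110.1, 117 and 148. With the 14-base probe 7 sham spots had 26.6, 31.6 and 37.7, and 7 OVX spots had 119.7, 137 and 153. With the 15-base probe 7 sham spots had 41.0, 44.6 and 58.9, and 7 OVX spots had 138, 159.5 and 173. No OVX spot of any probe fell into the sham range. The ranges stayed apart after scaling for each of the 4 probes, as they did in this direction for 18.9% of the 350 probes. The dimmest 3p spot used on the sham array, at 26.6, was above all 982 negative control spots of that array, the highest of which was 9.40. On the sham array 5 spots of the 12-base and 13-base probes carried an outlier flag and were left out, and on the OVX array 1 spot was.

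The scaled level of miR-574-3p was -1.84 in sham and -0.92 in OVX. The difference was 0.92 (spot SE 0.04), or 1.89-fold, and it was 1.93 (3.81-fold) without scaling. From the shortest to the longest probe the differences were 0.86, 1.0002, 1.09 and 0.73, each with a spot SE between 0.06 and 0.09. All 4 were above 0, and their SD of 0.16 was larger than the 0.11 usual between probes of a miRNA, with the longest and brightest probe giving the smallest value. The 3p arm was the sixth highest of the 197 miRNAs; it lay past 1.5-fold higher, as 11.2% of the 197 did, and short of 2-fold higher, which 2.03% reached. The sign was above 0 under all 17 other settings tried, but the size was not stable: it was 0.25 after normexp background correction. That setting starts from the mean spot signal and its local background and adds an offset of 50. For scale, the processed signal of the 3p spots in sham was between 26.6 and 58.9.

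**Figure D1:**
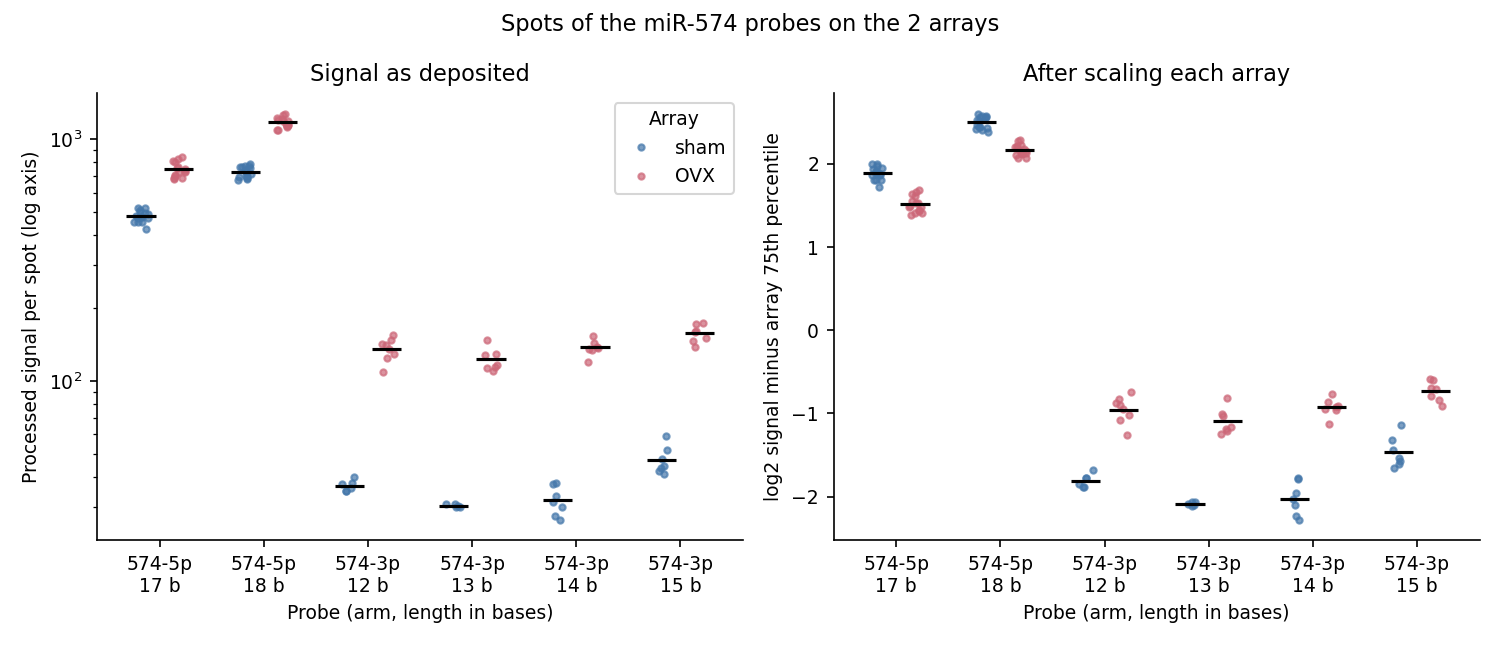
Each point is a spot of a miR-574 probe on the sham (blue) or OVX (red) array, with black lines at the means; the left axis is the processed signal on a log scale and the right axis is the log2 signal minus the array's 75th percentile. On the left all 6 probes are brighter on the OVX array, and on the right the 2 probes of the 5p arm are lower and the 4 probes of the 3p arm higher.

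Subtracting the arms from each other removes any constant that scales an array. The 3p difference minus the 5p difference was 1.27 (spot SE 0.04), so relative to its sister arm miR-574-3p was 2.41-fold higher in OVX than in sham. Over the 8 pairs of a 3p and a 5p probe this contrast ran from 1.06 to 1.46, or from 2.09-fold to 2.74-fold. It was the same with no scaling, median scaling, control-probe scaling and the 75th percentile of all probes, because those settings shift both arms alike. Other settings moved it either way: it was 0.94 with quantile normalization, 0.89 in the authors' deposited value table and 0.39 with normexp, and 1.33 after subtraction of the negative controls, which was added after seeing the data. That the arms went in opposite directions depended on the setting. Unscaled, and with control-probe scaling, both arms were higher in OVX and the 3p arm by more. With Agilent's gene-level signal the 5p arm was at -0.0045, close to 0, and the 3p arm at 1.25. The contrast was 1.25 with that signal. It was also 1.25 with the summed signal of each arm's probes, where the arms were at -0.35 and 0.90. Between these settings both arms were thus shifted nearly alike. The other miRNAs named here depend on the scaling too: every difference would be higher by 1.01 without scaling and by 0.67 with control-probe scaling. In the authors' deposited table the log2 values of miR-574-5p were 8.60 in sham and 8.45 in OVX, and those of miR-574-3p were 4.64 and 5.38.

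**Figure D2:**
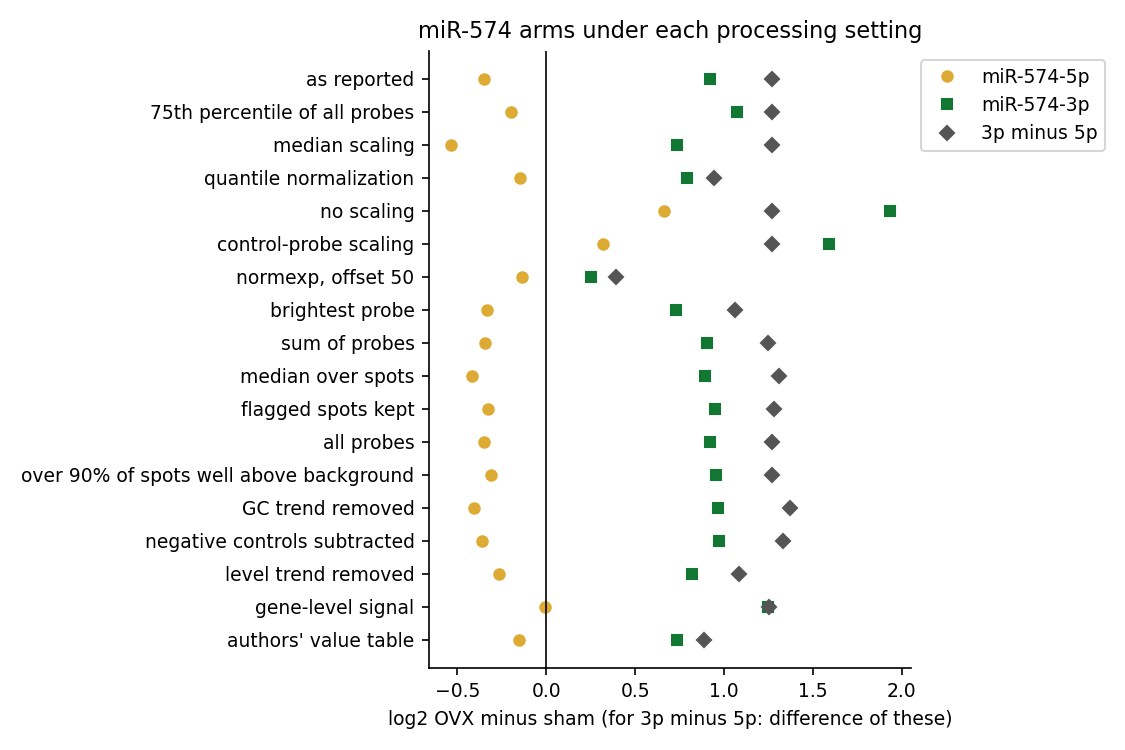
The log2 OVX minus sham differences of miR-574-5p (circles) and miR-574-3p (squares), and the 3p minus 5p contrast (diamonds), are plotted for the values as reported and 17 other settings. The 3p arm is above 0 in every setting shown, the 5p arm is above 0 with no scaling (0.66) and with control-probe scaling (0.32), and the contrast is smallest with normexp (0.39).

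Hairpins with both arms measurable were few. Of 723 hairpins with both arms on the array, 9 had both arms present on both arrays and 113 had exactly 1 arm present, the 5p arm in 68 and the 3p arm in 45. Among the 9, miR-574 had the second largest contrast between its arms in absolute value, and the median was 0.67. The largest, 1.54, was that of miR-7047, with its 5p arm at -0.97 and its 3p arm at 0.57. The next below miR-574 was miR-466i, whose contrast of 1.002 came from a 5p arm at -0.31 and a 3p arm at 0.69. miR-652 followed with a contrast of -0.71, its 5p arm at 0.30 and its 3p arm at -0.41, and then miR-6984 with -0.67 (0.19 and -0.48). Arms on opposite sides of 0 were no rarity in this small set: 7 of the 9 hairpins had them, with the 3p arm higher in 4 and the 5p arm higher in 3. For 1 of these, miR-483, the 5p arm was at -0.0037 (spot SE 0.06) and so could not be told from 0, while its 3p arm was at 0.37. Both arms of the blood-cell hairpins miR-142a (1.08 and 0.63) and miR-144 (0.97 and 0.85) were above 0; these 3 hairpins were named after their values were seen. With the gene-level signal miR-144 had its arms on opposite sides, the 5p arm at -1.29 and the 3p arm at 1.20, and with 2.48 the largest contrast of the 9. With normexp the 3p arm of miR-7047 was at -0.12, and the 5p arms of miR-652 and miR-6984 were at -0.05 and -0.27. The 5p arm of miR-140, also among the 9, was at -0.21 with normexp and at -0.02 with median scaling. These arms thus changed side, and with normexp only miR-574, miR-466i and miR-483 kept arms on opposite sides. Without scaling no arm of the 9 hairpins was below 0, the lowest being the 5p arm of miR-7047 at 0.04. With control-probe scaling only miR-7047 had its arms on opposite sides, at -0.30 and 1.24. miR-574 was in place 3 instead of 2 with normexp, with the gene-level signal and in the authors' deposited table.

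**Figure D3:**
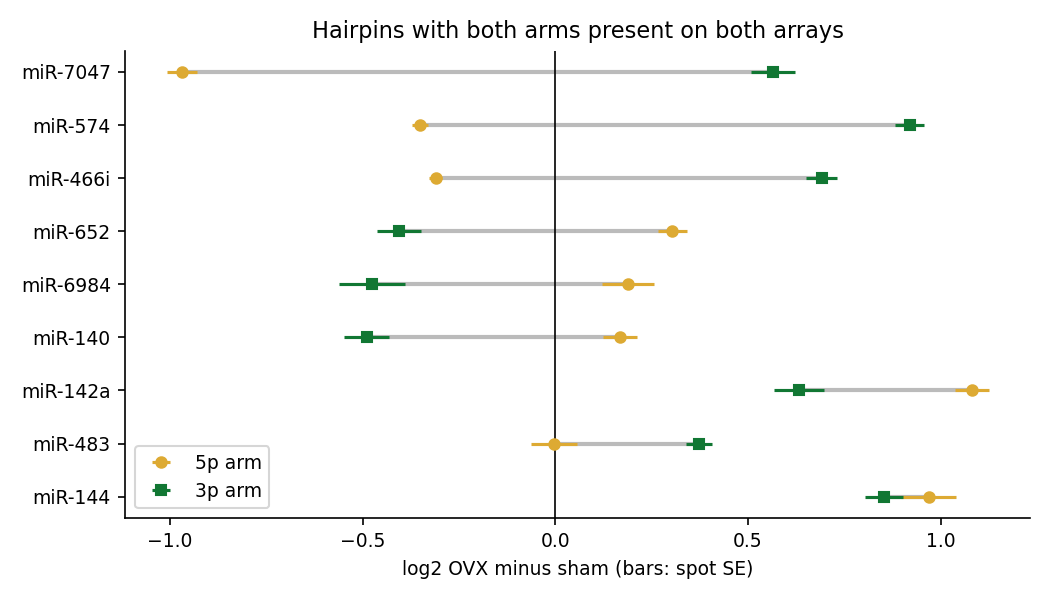
For each of the 9 hairpins with both arms present on both arrays, the log2 OVX minus sham difference of the 5p arm (circle) and the 3p arm (square) is plotted, with spot SE as bars; hairpins are ordered by the size of the contrast. miR-574 (-0.35 and 0.92) is second after miR-7047 (-0.97 and 0.57), and miR-466i (-0.31 and 0.69) has the same order of arms.

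The arms lay at opposite ends of the array in probe composition. T and G made up 5.72% of the bases in the 5p probes and 91.2% in the 3p probes, against a median of 45.4% over the 197 miRNAs. GC content was closer to the middle, at 48.5% and 57.6% against a median of 53.3%. The T and G content of the probes and the difference had a Spearman correlation of 0.18 across the 197 miRNAs, and GC content had one of -0.32; these miRNAs share the 2 arrays, and the values are descriptions. After removal of the trend with GC content the arms were at -0.41 and 0.97 and the contrast was 1.37. Composition at these extremes was looked at after the values were seen. Of the other 4 miRNAs with at least 90% T and G in their probes, 3 were above 0, namely miR-466f-3p (0.85), miR-467f (0.47) and miR-466h-3p (0.42), and miR-3620-3p was at -0.90. Of the other 5 with at most 10%, miR-466i-5p (-0.31), miR-3082-5p (-0.13) and miR-7018-5p (-0.07) were below 0, and miR-8110 (0.29) and miR-669n (0.17) were above; of these, miR-466i-5p, miR-3082-5p, miR-7018-5p and miR-669n changed side under other settings. The cut of 90% left out miR-466i-3p (89.2%, 0.69), whose sister arm miR-466i-5p has 0% T and G in its probes. Next below it came miR-669c-3p (88.9%, 0.27), miR-3968 (86.2%, 0.14), miR-466g (84.5%, 0.70) and miR-466q (81.8%, 0.39), all above 0. Further down, miR-690 (77.5%) was at -0.48. Next above 10% came let-7b-5p (10.8%, -0.22) and miR-6937-5p (13.3%, -0.92), both below 0. Over all 197 miRNAs 93 were above 0 and 104 below. The part that probe composition has in the arm contrast was not tested.

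Probes of other miRNAs share long runs with the complement of a miR-574 arm, and their sequences are shown for that reason. Such a run can reach past the bases that the miR-574 probes cover. Those of miR-466i-5p, miR-32-3p, miR-466g and miR-466o-3p do, so the stretch they share with the miR-574 probes themselves is shorter. Capitals mark the longest stretch that is also complementary to the miR-574 arm.
miR-466i-5p probe: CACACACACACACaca
miR-3082-5p probe: acacagACACACACAC
miR-32-3p probe: aatatCACACACACTaaattg
miR-466g probe: tGTGTGTGCATGtgtc
miR-466o-3p probe: gtcttaTGTGTGCATGtat
The first 3 share runs of 13, 10 and 10 bases with the complement of miR-574-5p. miR-466i-5p, a bright GU-repeat miRNA, went from 3.51 to 3.19 and so differed by -0.31 (spot SE 0.02), which is close to that of miR-574-5p; with the gene-level signal it was at 0.03. miR-3082-5p went from 1.33 to 1.20 (-0.13, spot SE 0.02). miR-32-3p, dim in both, went from -2.15 to -1.40 (0.75, spot SE 0.05), in the other direction. By mature sequence, miR-1187 also shared a run of 11 bases with miR-574-5p, and it differed by -0.36 (spot SE 0.02). For miR-574-3p the runs of 11 and 10 bases belonged to miR-466g, which differed by 0.70 (spot SE 0.04), and to miR-466o-3p, which differed by -0.41 (spot SE 0.14). miRNAs related in sequence thus lay on both sides of 0 for each arm, and how much of one miRNA binds the probe of another was not tested.

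In brightness the arms also stood apart, which says nothing of their relative abundance because each probe has its own response. Averaged over the arrays, miR-574-5p lay among the 49 brightest of the 197 miRNAs and miR-574-3p among the next 49. The difference had a Spearman correlation of 0.22 with the mean level across the 197, and of 0.008 with the sham level. Each of these levels holds a value that is also part of the difference. Within the 49 brightest the median difference was -0.01 and 12 were at or below the value of miR-574-5p. Within the next 49 the median was 0.22, the highest 1.79, and 5 were at or above miR-574-3p, itself included. With the trend of the difference over level removed, an alternative added after seeing the data, the arms were at -0.27 and 0.82 and the contrast was 1.09. The miRNAs with differences nearest to that of miR-574-5p were miR-2137 and miR-1187 (both -0.36) and miR-27a-3p (-0.34). Those nearest to miR-574-3p were miR-21a-5p and miR-29c-3p (both 0.90) and miR-29b-3p (0.89, but -1.48 with the gene-level signal). Likeness here is the closeness of a single difference between 2 arrays.

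**Figure D4:**
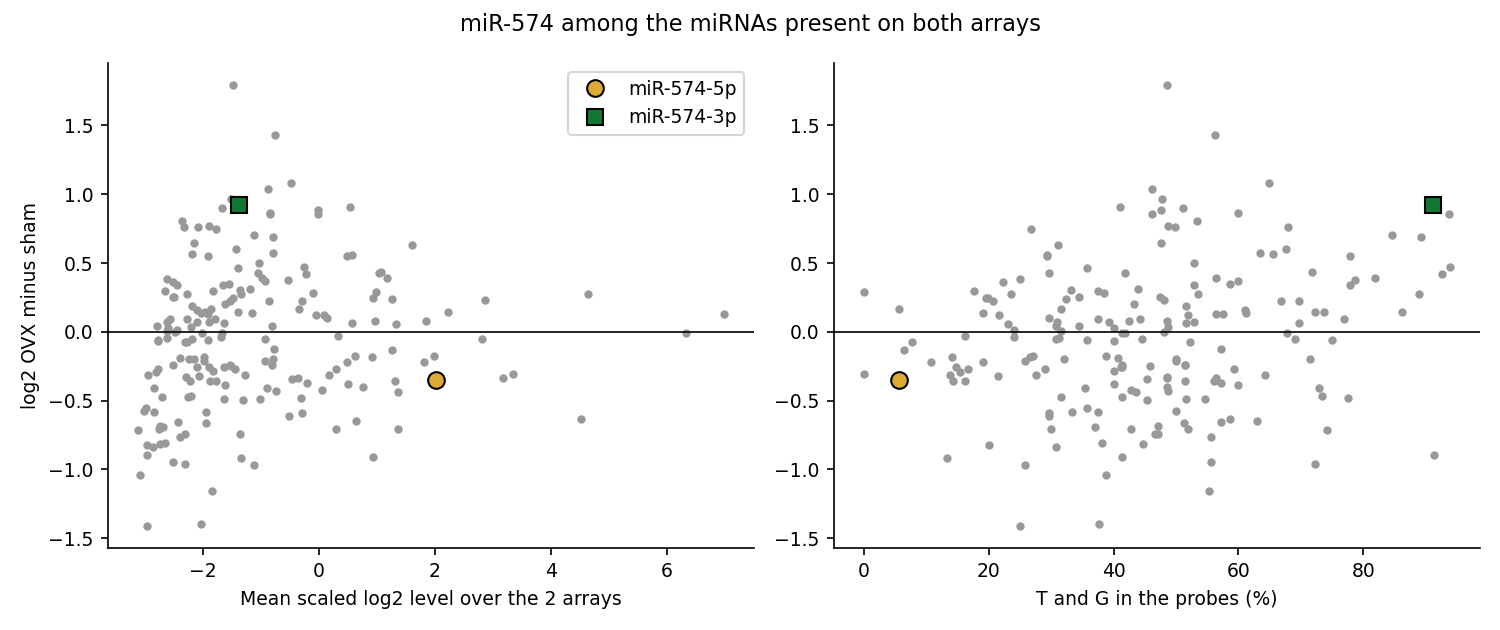
Each grey point is a miRNA present on both arrays, with its log2 OVX minus sham difference on the vertical axis against its mean scaled log2 level (left) and the percentage of T and G in its probes (right). miR-574-5p (circle, -0.35) is bright and has 5.72% T and G in its probes, and miR-574-3p (square, 0.92) is of middling level and has 91.2%.

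miR-574-3p was set beside 10 other miRNAs of cartilage and of mesenchymal cells. miR-140, the miRNA most typical of cartilage, was present with both arms on both arrays, with its 5p arm at 0.17 (spot SE 0.04) and its 3p arm at -0.49 (spot SE 0.06), the reverse order of the arms of miR-574; the 5p arm was at -0.21 with normexp. miR-199a-3p was present on the OVX array only. Presence was called before scaling, and of the 1881 miRNAs 299 were present on the brighter OVX array and 202 on the sham array. The other 7, both arms of miR-455, miR-675 and miR-145a and the 5p arm of miR-199a, were well above background on neither array. The median of the 2 measured members was -0.16, against -0.04 over all 197 miRNAs. Most of the list could thus not be read at this signal.

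Markers of the cells in a whole femur moved between the arrays in both directions. Of 4 red-cell miRNAs, 3 had differences above 0 and the exception was miR-486a-5p (-0.71). The granulocyte miRNA miR-223-3p was at -0.63, the lymphocyte miRNA miR-150-5p at 1.43 and the endothelial miRNA miR-126a-3p at 0.77. miR-150-5p was read by 1 probe, with a spot SE of 0.14. Other miRNAs known from lymphocytes, looked up after the values were seen, were at 0.22 (miR-342-3p), -0.21 (miR-181a-5p) and -0.36 (miR-181b-5p). Of the muscle miRNAs miR-133a-3p and miR-133b-3p were present on the sham array only, and miR-1a-3p and miR-206-3p on neither. Markers from outside the femur, miR-122-5p of liver and miR-124-3p and miR-9-5p of brain, were present on neither array. The part of cell composition in the values of miR-574 was not tested.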

How the data were processed

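RNA of 2 pooled femur samples was profiled on 1 array each; the labels name a kit for amplifying cRNA, which is not how miRNA is usually labelled. The deposited scanner files hold spot intensity, made by the authors with Agilent Feature Extraction (10.7.1.1 per the file headers, 11.0.1.1 per the submitters' processing notes); the processed intensity is background-subtracted and not normalized between arrays. Outlier-flagged and control spots were left out, no miRNA spot was saturated, and the mean signal of each probe was taken to log2, scaled to the 75th percentile and averaged over the probes of a miRNA. Spot SE was propagated from the spread between spots. The number of arrays limits the precision, so no test was made; 2-fold, with 1.5-fold as the alternative, counted as called. The authors' deposited value table holds log2 values, whose normalization no source used here gives. Row names in it match the gene-level signal only when moved by 1 row (Spearman correlation 0.996 for sham and 0.994 for OVX, against 0.02 and 0.04 as printed), and it was used that way as an alternative. Its columns have medians of -3.18 and -3.32; its scale is log2 with OVX and sham in separate columns, and its centring stays unknown.

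The members and lists were chosen with earlier results of these data known. Named miRNAs are both arms, the 4 other hairpins with the largest contrast or next in place, and the 3 nearest differences per arm. Added to these are miRNAs that share a seed or a run of at least 10 bases, the cartilage list and the cell type markers. The miRNAs at or near the extremes of probe composition, and the hairpins miR-483, miR-142a and miR-144, were named after the values were seen. Processing used Python 3.11.15, limma 3.58.1 (normexp) and RNAfold 2.7.2, and the functions were tested on simulated data.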

Additional observations from a re-analysis of the deposited data

How the results depend on the processing

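The sign of miR-574-3p and of the contrast between the arms was kept under all 17 alternatives. The sign of miR-574-5p was kept under 15 and turned under no scaling (0.66) and control-probe scaling (0.32). Those 15 include the gene-level signal, where miR-574-5p was at -0.0045 and so close to 0 that its sign says little. In the order 5p, 3p, values moved to -0.20 and 1.07 with the 75th percentile of all probes, -0.54 and 0.73 with median scaling, -0.15 and 0.79 with quantile normalization, -0.14 and 0.25 with normexp, -0.0045 and 1.25 with the gene-level signal and -0.15 and 0.74 in the authors' deposited table. The 3p arm alone moved to 0.73 with its brightest probe, and to 1.93 and 1.59 under the settings that turned the 5p arm. The contrast moved to 0.94 with quantile normalization, 0.39 with normexp, 1.06 with the brightest probes, 0.89 in the authors' deposited table and, added after seeing the data, 1.09 with the level trend removed. Subtracting the mean of the negative controls, also added, gave 1.33. At 1.5-fold, 22 miRNAs were higher and 29 lower, against 4 and 4 at 2-fold. Of 38 other named miRNAs that were followed through the settings, 2 were past 2-fold and kept their sign in every setting. Among all 38, no scaling or control-probe scaling turned the sign of 15, and another setting turned that of 11, most widely miR-144-5p (-1.29) and miR-29b-3p (-1.48) with the gene-level signal. The sham signal of miR-574-3p, at 26.6 to 58.9 per spot, limits how precisely its difference can be read. No paired analysis was possible because each group has 1 array.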
